A study of Mus musculus with 10 samples.

Results

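Microglial identity and complement genes were followed in the prefrontal cortex (PFC) of *Zbtb16* knockout (KO) and wild-type (WT) mice. The set held 9 genes, chosen by name because they mark microglia: *Aif1*, the gene of the microglial stain IBA1, the complement genes *C1qa*, *C1qb* and *C1qc*, and *Cx3cr1*, *Csf1r*, *P2ry12*, *Tmem119* and *Trem2*. All 9 were among the 22000 genes of the count table, and all 9 passed the filter on low counts that left 14344 genes for testing. The KO mice were homozygous for *lu* (luxoid), a C-to-T point mutation that gives a premature stop codon, in the line B6.C3-*Zbtb16lu*/J, a germline allele that microglia and all other cells carry. Each group held 5 mice labelled male and 7 weeks old, with 1 RNA-seq library of whole PFC per mouse. The other group is labelled WT, and the labels give no treatment. The RNA was taken without sorting, so a difference between regions or layers of the PFC was not measured. In whole tissue, fewer microglia and less RNA per microglial cell cannot be told apart, nor can more cells and more RNA per cell.

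Microglia are the resident macrophages of the brain. They live on signals through the receptor CSF1R, whose ligands CSF1 and IL34 come from glia and neurons, and neurons hold them in a surveying state in part through the chemokine CX3CL1 and its receptor CX3CR1. Microglia are also the main source of C1q in the brain, the recognition molecule of the classical complement pathway, which can tag synapses for removal. IBA1 is an actin-binding protein whose staining is used to count microglia, and TREM2 is a lipid-sensing receptor that signals through the adaptor TYROBP.

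The C1q genes lie side by side on the minus strand of chromosome 4 (GRCm38), with *C1qb* at chr4:136880129-136886187, *C1qc* at chr4:136889804-136893065 and *C1qa* at chr4:136895917-136898803, within 18.68 kb. Of the others, 5 lie at chr17:35170991-35176068 (*Aif1*), chr17:48346401-48354147 (*Trem2*), chr9:119901616-120069879 (*Cx3cr1*), chr3:59216272-59262871 (*P2ry12*) and chr5:113793729-113800516 (*Tmem119*). Of the exonic bases of *Csf1r*, 873 (15.1%) also lie in exons of *Hmgxb3* on the opposite strand, and 9 bases of *P2ry12* (0.353%) lie in exons of *Med12l*. The library kit keeps the strand, and whether the counting used it is not stated in the sources used here. Promoter sequence is shown because the members are a set of genes of 1 cell lineage, and the myeloid factor PU.1, encoded by *Spi1*, binds sites with the core GAGGAA. RefSeq (GRCm38.p6) gave a promoter, from 250 bases before to 50 after the start, for 6 of the 9 genes. The letters GAGGAA were found on either strand in 4 of these (*Aif1*, *C1qb*, *C1qc* and *Trem2*), and in 28.3% of all 32851 promoters of that length. Windows of 30 bases around the match are shown for the 3 whose match lies outside the annotated gene, 5′ to 3′ on the strand of the gene, with the match in capitals (TTCCTC is GAGGAA read on the other strand).
*C1qb*, chr4:136886213-136886242, minus strand: gcagcaggatggGAGGAAcagaggggtgat
*C1qc*, chr4:136893090-136893119, minus strand: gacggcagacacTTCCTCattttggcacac
*Trem2*, chr17:48346349-48346378, plus strand: agcctcctttccTTCCTCcctccctcacgc
The matches lay 30, 193 and 40 bases before the RefSeq start, and the one in *C1qb* was on the strand of the gene. The gene intervals above are those of Gencode M21, in which *C1qb* and *C1qc* start at other bases than in RefSeq. A match is a run of letters and was not tested as a binding site, and the 3 C1q windows could not be compared because *C1qa* had no entry.

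Total counts ranged from 31644888 to 51231439 in KO and from 30220122 to 47343536 in WT libraries, and RNA integrity numbers (RIN) from 8.1 to 9.8. *Zbtb16* itself was at 47.4 ± 4.96 CPM (counts scaled to the size of the library, mean ± SD, n = 5) in KO and 79.0 ± 7.23 CPM (n = 5) in WT, with no overlap, a log2 fold change of -0.67 (SE 0.06, edgeR adjusted p = 3.4e-05). Single libraries stood apart in ways that touch the values given here. The library labelled KO mouse 3 held 1 count over 4 Y-linked genes against 4376 to 8182 in the others, although all mice are labelled male. KO mouse 5 was the deepest library, carried red cell genes at a summed 143.1 CPM against 27.7 to 59.3 in the other mice, and had a weight of 0.88 on the first of the 3 surrogate variables (fitted terms for unlabelled differences between libraries) against -0.30 to 0.10 in the others. In WT mouse 2 the level of *Csf1r* lay apart from the other WT mice.

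No microglial gene was called different between the genotypes. None of the 9 passed the test in edgeR (adjusted p below 0.05 over all 14344 genes), where 115 genes (0.802%) passed, 0.579% higher and 0.223% lower in KO, and neither DESeq2 nor limma called a member. With the unadjusted p, 1 of 9 was below 0.05 (*Cx3cr1*), where 10.6% of all genes were. Without surrogate variables 0 of 9 passed in edgeR, where 0.209% of genes did, and 1 of 9 had an unadjusted p below 0.05 (*Csf1r*), where 8.02% of genes had. The fitted log2 fold changes, KO over WT, were positive for 4 and negative for 5 genes, with a median of -0.062 beside -0.0045 over all tested genes. Without surrogate variables the median of the 9 was -0.0071 beside -0.0023 over all genes. No member had KO and WT values that did not overlap, where 1.58% of tested genes had. The summed level of the 9 genes was 326 ± 12.02 CPM (SD, n = 5) in KO and 318 ± 13.6 CPM (n = 5) in WT, and ranged from 314 to 344 in KO and from 296 to 327 in WT mice. That is 0.0312 to 0.0347% of all counts in KO and 0.0298 to 0.0331% in WT. The widest interval among the fitted folds was that of *Aif1*, and the intervals of the other 8 genes lay between 0.838 and 1.17 times the WT level.

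**Figure D1:**
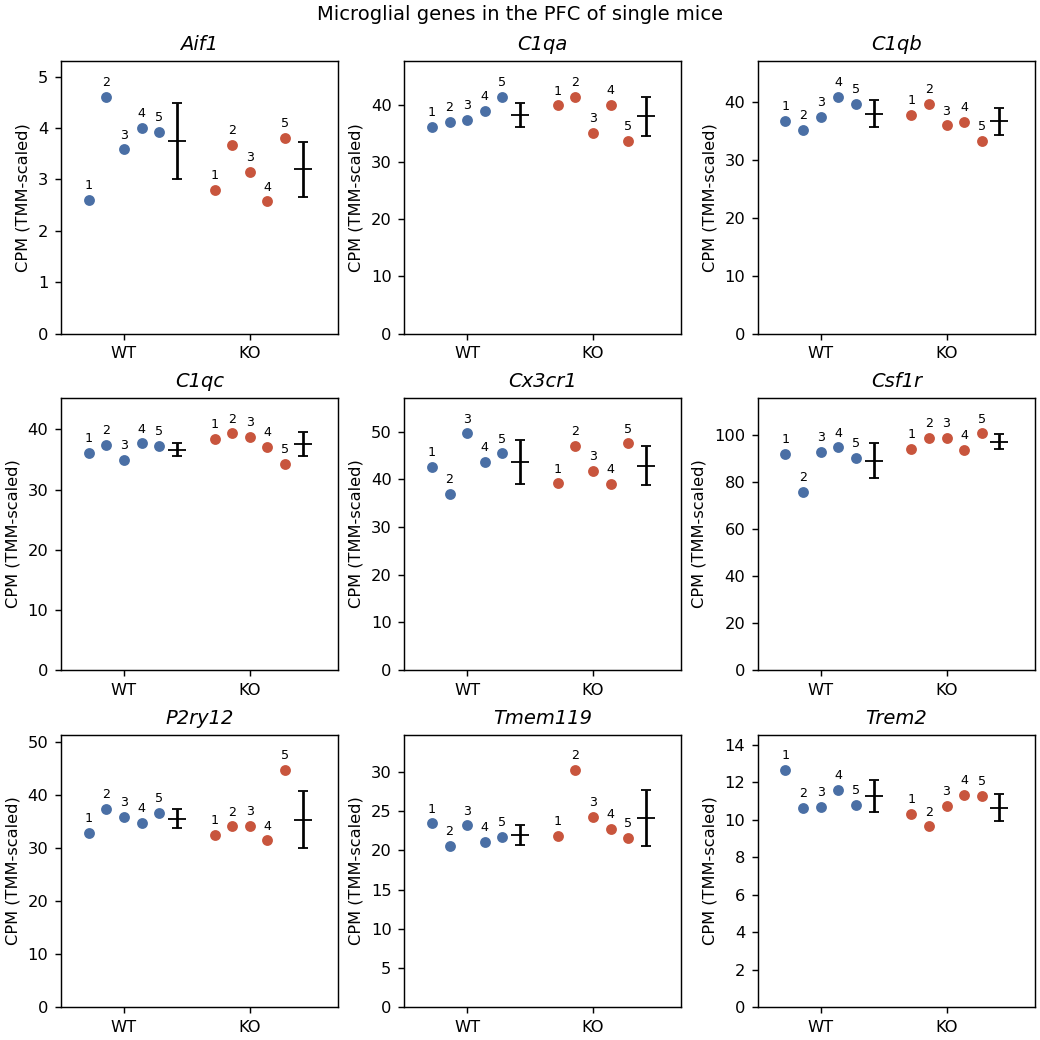
Level of each microglial gene (y axis, TMM-scaled CPM, each panel from 0) in WT and KO mice (x axis), with 1 numbered point per mouse and the mean ± SD (n = 5) beside the points. The groups overlap in all 9 panels, with KO mouse 5 apart for *P2ry12* (44.6 CPM) and WT mouse 2 apart for *Csf1r* (76.0 CPM).

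*Aif1* had the largest fitted difference and the fewest counts, 78 to 220 per library. In WT mice 1 to 5 it was at 2.59, 4.61, 3.58, 4.003 and 3.92 CPM. KO mice 1 to 5 had 2.80, 3.66, 3.14, 2.57 and 3.81 CPM. All 5 KO mice lay below the WT median, while WT mouse 1 lay below 4 of them, so the groups overlapped. The means were 3.20 ± 0.536 in KO and 3.74 ± 0.742 CPM in WT (SD, n = 5 each). The log2 fold change was -0.35 (SE 0.19, 95% confidence interval -0.74 to 0.04, edgeR adjusted p = 0.544), which as a fold is 0.785 with an interval from 0.598 to 1.03. An exact two-sided permutation test gave p = 0.238, and the smallest p it can give is 0.00794. The fitted value stayed negative in all 21 alternative fits, from -0.41 to -0.12, with -0.23 without surrogate variables and a lowest edgeR, DESeq2 or limma adjusted p of 0.361.

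The C1q genes encode the A, B and C chains, which assemble into 1 molecule. *C1qa* was at 36.2, 37.0, 37.4, 39.0 and 41.4 CPM in WT mice 1 to 5 and at 39.9, 41.5, 35.1, 40.1 and 33.8 CPM in KO mice 1 to 5. *C1qb* stood at 36.8, 35.1, 37.4, 40.9 and 39.6 CPM in WT and at 37.8, 39.7, 35.9, 36.5 and 33.3 CPM in KO mice. *C1qc* was at 36.1, 37.4, 34.9, 37.7 and 37.2 CPM in WT and at 38.4, 39.4, 38.8, 37.1 and 34.3 CPM in KO mice. KO mouse 5 was the lowest of the 10 mice for each of the 3 chains, KO mice 1, 2 and 3 lay above every WT mouse for *C1qc*, and the groups overlapped for each chain. The means were 38.1 ± 3.41 CPM in KO and 38.2 ± 2.08 CPM in WT for *C1qa* (SD, n = 5), 36.6 ± 2.35 and 38.0 ± 2.32 CPM for *C1qb*, and 37.6 ± 2.01 and 36.7 ± 1.14 CPM for *C1qc*. The sum of the 3 chains was 112.3 ± 7.22 CPM in KO and 112.8 ± 4.69 CPM in WT (SD, n = 5). In edgeR the log2 fold changes were 0.0036 for *C1qa* (SE 0.06, adjusted p = 0.991), -0.062 for *C1qb* (SE 0.06, adjusted p = 0.769) and 0.053 for *C1qc* (SE 0.05, adjusted p = 0.785). As folds, the 95% intervals ran from 0.922 to 1.09, from 0.881 to 1.04 and from 0.964 to 1.12. They rest on 1086 to 1784 counts per library for each chain.

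*Csf1r* (chr18:61100598-61132149) encodes the receptor for CSF1 and IL34 on which microglial survival depends. It had 92.0, 76.0, 92.9, 94.9 and 90.5 CPM in WT mice 1 to 5. In KO mice 1 to 5 it had 94.3, 98.8, 98.8, 93.8 and 100.9 CPM. All 5 KO mice lay above the WT median and 3 above every WT mouse, with WT mouse 2 far below the rest. Means were 97.3 ± 3.11 CPM in KO and 89.2 ± 7.58 CPM in WT (SD, n = 5). The log2 fold change was 0.074 (SE 0.05, interval -0.03 to 0.17, edgeR adjusted p = 0.646), and without surrogate variables 0.13 (interval 0.01 to 0.25, edgeR adjusted p = 0.609). In the exact permutation test *Csf1r* had p = 0.0238 (adjusted over all genes 0.581), where 7.34% of tested genes were below 0.05. Without WT mouse 2, the log2 fold change was 0.058 (edgeR adjusted p = 0.607). *Hmgxb3*, which shares exonic bases with *Csf1r*, was at 60.6 CPM in KO and 59.9 CPM in WT, with a log2 fold change of 0.07 (edgeR adjusted p = 0.659). In the 6 mice with RIN of 9.5 or above, the means were 95.7 CPM in KO and 86.2 CPM in WT, and in the other 4 mice 99.8 and 93.9 CPM.

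*Cx3cr1*, the receptor for the neuronal chemokine CX3CL1, had the smallest unadjusted p of the set. WT mice 1 to 5 had 42.5, 37.0, 49.6, 43.6 and 45.4 CPM, and KO mice 1 to 5 had 39.1, 47.0, 41.7, 39.0 and 47.5 CPM. The ranges covered each other almost wholly, and the means were 42.9 ± 4.16 CPM in KO and 43.6 ± 4.60 CPM in WT (SD, n = 5). With 3 surrogate variables the log2 fold change was -0.14 (SE 0.05, interval -0.25 to -0.03, edgeR adjusted p = 0.325). Without surrogate variables it was -0.024 (interval -0.19 to 0.14, edgeR adjusted p = 0.971), and the exact permutation p was 0.794. Over the 21 alternative fits the unadjusted p was below 0.05 in 12, and the lowest adjusted p was 0.221. All 12 kept 3 surrogate variables. The unadjusted edgeR p was 0.352 with 1 surrogate variable, 0.373 with 2, 0.737 with RIN as covariate and 0.773 with the replicate number as a block.

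*P2ry12*, the purinergic receptor that steers microglial processes towards ATP, was at 32.8, 37.3, 35.9, 34.7 and 36.6 CPM in WT mice 1 to 5. KO mice 1 to 5 were at 32.3, 34.0, 34.1, 31.4 and 44.6 CPM. KO mouse 5 lay above every other mouse, and the other 4 KO mice lay below the WT median. Means were 35.3 ± 5.34 CPM in KO and 35.5 ± 1.79 CPM in WT (SD, n = 5), and without KO mouse 5 the KO mean was 33.0 ± 1.32 CPM (n = 4). The log2 fold change was -0.096 (SE 0.07, interval -0.23 to 0.04, edgeR adjusted p = 0.665), -0.13 without KO mouse 5 (edgeR adjusted p = 0.45), and -0.0046 with all mice and no surrogate variables. Beside the fold of 1.35 for *P2ry12* over the mean of the other KO mice, KO mouse 5 had folds of 1.25 for *Aif1* and 1.14 for *Cx3cr1*, but 0.863 for *C1qa*, 0.889 for *C1qb* and 0.894 for *C1qc*. *Tmem119* was also low in KO mouse 5, with a fold of 0.870, while *Csf1r* (1.05) and *Trem2* (1.08) lay nearer 1. The log2 ratio of *P2ry12* to *C1qa* was 0.40 in KO mouse 5, from -0.35 to -0.04 in the other KO mice and from -0.18 to 0.01 in WT mice. The part of the red cell RNA, depth or RIN of 8.1 of that library in this split was not tested.

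*Tmem119*, a membrane protein used to tell microglia from blood-derived macrophages, was at 23.5, 20.6, 23.2, 21.04 and 21.8 CPM in WT mice 1 to 5 and at 21.9, 30.3, 24.3, 22.7 and 21.6 CPM in KO mice 1 to 5. KO mouse 2 stood high, KO mouse 3 lay just above the WT range, and the other KO mice lay within it. The log2 fold change was 0.073 (SE 0.07, interval -0.08 to 0.23, edgeR adjusted p = 0.793), with means of 24.2 ± 3.58 CPM in KO and 22.0 ± 1.28 CPM in WT (SD, n = 5). *Trem2* had 12.7, 10.6, 10.7, 11.6 and 10.8 CPM in WT and 10.3, 9.64, 10.7, 11.3 and 11.3 CPM in KO mice 1 to 5. The groups overlapped, with WT mouse 1 highest and KO mouse 2 lowest. The means of *Trem2* were 10.7 ± 0.703 CPM in KO and 11.3 ± 0.867 CPM in WT (SD, n = 5), a log2 fold change of -0.068 (SE 0.09, interval -0.25 to 0.12, edgeR adjusted p = 0.855).

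**Figure D2:**
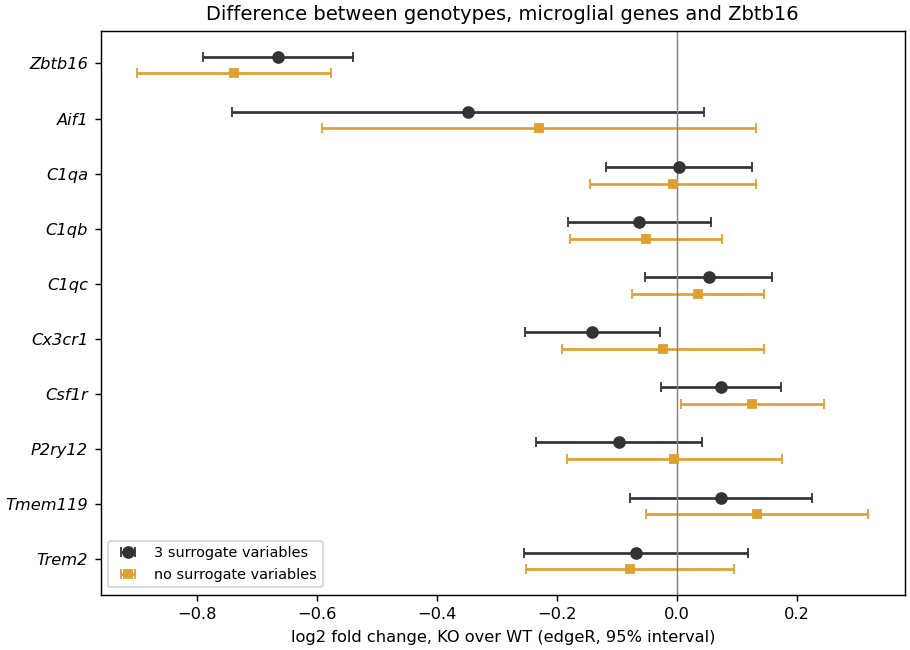
Fitted log2 fold change, KO over WT (x axis), of the 9 microglial genes and, for scale, *Zbtb16* (y axis), as points with 95% confidence intervals, black with and orange without the 3 surrogate variables. With them the interval of *Cx3cr1* (-0.25 to -0.03) lies below 0, and without them that of *Csf1r* (0.01 to 0.25) lies above 0, while no microglial gene passes after adjustment over all genes.

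Per kb of exon, the C1q genes *C1qa* and *C1qb* led the WT levels at 36.7 ± 1.998 and 34.9 ± 2.13 CPM per kb (SD, n = 5), and their WT ranges overlapped. *C1qc* followed at 19.0 ± 0.590 CPM per kb, apart from both neighbours. *Csf1r* (15.5 ± 1.31) and *P2ry12* (13.9 ± 0.702) overlapped, as did *Cx3cr1* (9.69 ± 1.02) and *Tmem119* (9.51 ± 0.554), while the ranges of *P2ry12* and *Cx3cr1* did not. The lowest levels per kb were those of *Aif1* (2.44 ± 0.484) and *Trem2* (2.28 ± 0.175), which overlapped each other and lay apart from *Tmem119*. In KO mice the means of 2 of these overlapping neighbours changed places, with *Tmem119* (10.4) above *Cx3cr1* (9.51) and *Trem2* (2.15) above *Aif1* (2.09 CPM per kb). The exon lengths are those of all annotated isoforms joined, and the order depends on them. Before division the C1q chains lay close together in WT, at 38.2 (*C1qa*), 38.0 (*C1qb*) and 36.7 CPM (*C1qc*). Their joined lengths were 1.04, 1.088 and 1.931 kb, and that of *Trem2* was 4.946 kb.

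The spread between mice differed from gene to gene. In WT mice the coefficient of variation ran from 3.11% (*C1qc*) to 19.8% (*Aif1*), where counting alone would give 2.704% and 8.74%. In KO mice it ran from 3.20% (*Csf1r*) to 16.8% (*Aif1*), and KO mouse 5 and KO mouse 2 gave *P2ry12* and *Tmem119* values of 15.1% and 14.8%, against 5.04% and 5.82% in WT. Over the 10 mice, 36 pairs of members were correlated on log2(CPM + 1), of which 16 were positive and 20 negative, with a median Pearson r of -0.02. No pair passed after Benjamini-Hochberg adjustment over the 36. *C1qa* and *C1qb* had r = 0.79 (permutation p = 0.0069, adjusted p = 0.248) and Spearman rho = 0.73 (permutation p = 0.0202, adjusted p = 0.364). Without the 2 mice farthest from the median of *C1qa* (KO mice 3 and 5) r was 0.61, and in the 6 mice with high RIN it was 0.79. *Aif1* and *P2ry12* had r = 0.65 (permutation p = 0.0312, adjusted p = 0.524) and rho = 0.82 (permutation p = 0.0054, adjusted p = 0.193). Without KO mouse 4 and WT mouse 1 this r was 0.49, and among the mice with high RIN 0.95. The negative relation of *P2ry12* to *C1qa* (r = -0.54) was -0.15 without KO mice 3 and 5, and that to *C1qc* (r = -0.60) was 0.02 without KO mouse 5 and WT mouse 3, so both relations rested on those mice. The mice with RIN below 9.5 numbered 4, too few for a value of their own. Group means within the RIN classes were 3.01 CPM in KO and 3.71 CPM in WT for *Aif1* at high RIN and 3.48 and 3.79 CPM at low RIN. *P2ry12* had 32.6 and 35.6 CPM at high RIN, but 39.4 and 35.3 CPM at low RIN, where KO mice 3 and 5 are the KO mice. *C1qa* had 40.5 and 38.2 CPM at high RIN and 34.4 and 38.2 CPM at low RIN, and *Cx3cr1* 41.7 and 41.6 CPM at high and 44.6 and 46.6 CPM at low RIN.

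**Figure D3:**
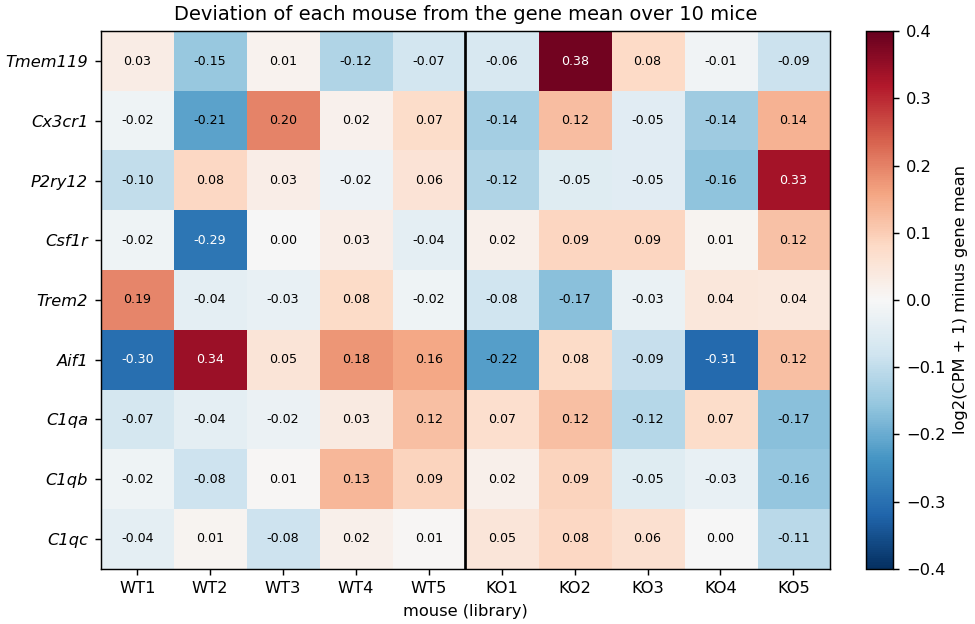
Level of each microglial gene (rows) in each mouse (columns) as log2(CPM + 1) minus the mean over the 10 mice, in colour and in numbers. KO mouse 5 shows *P2ry12* high and the 3 C1q genes low, and no gene separates the KO columns from the WT columns.

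Other genes linked to microglia were taken from lists of textbook markers. In unsorted PFC, the cells that their RNA came from were not measured. Among 27 tested homeostatic microglial genes, none passed in edgeR, 13 were positive and 14 negative, and the median log2 fold change was -0.022. The unadjusted p was below 0.05 for 5 of them (18.5%, beside 10.6% of all genes), all lower in KO. Without surrogate variables 4 of these 5 (*Olfml3*, *Gpr34*, *Ctss* and *Hpgds*) were at or above 0.05, and the list median was 0.044. *Tgfbr1*, the TGF-beta receptor needed for the homeostatic state, had 31.0 ± 2.76 CPM in KO and 35.5 ± 0.854 CPM in WT (SD, n = 5), a log2 fold change of -0.20 (edgeR adjusted p = 0.114). *Olfml3*, a secreted microglial glycoprotein, had 15.2 ± 2.36 and 17.3 ± 1.32 CPM, a log2 fold change of -0.28 (edgeR adjusted p = 0.144). Neither passed and neither separated the genotypes, although without KO mouse 2 both passed in edgeR (adjusted p = 0.0461 for *Tgfbr1* and 0.0482 for *Olfml3*). That fit called 249 genes over all tested, the most of any fit, against 115 with all mice, and no other fit called either gene.

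Ligands, partners and transcription factors of the members gave 0 calls of 21 in edgeR, with a median log2 fold change of 0.00072. The unadjusted p was below 0.05 for 3 of the 21 (14.3%, beside 10.6% of all genes). The CSF1R ligand *Il34* was at 67.2 ± 5.93 CPM in KO and 58.6 ± 4.57 CPM in WT (SD, n = 5), a log2 fold change of 0.17 (edgeR adjusted p = 0.234). Its other ligand *Csf1* was at 17.8 ± 0.829 and 17.9 ± 1.38 CPM (-0.039, edgeR adjusted p = 0.918). *Cx3cl1*, the ligand of CX3CR1, was at 1033 ± 50.95 and 978 ± 30.4 CPM (0.10, edgeR adjusted p = 0.188). The TREM2 adaptor *Tyrobp* (-0.10, edgeR adjusted p = 0.793) and the PU.1 gene *Spi1* (-0.02, edgeR adjusted p = 0.985) had means of 10.1 ± 1.28 against 10.8 ± 1.05 CPM and of 2.61 ± 0.256 against 2.61 ± 0.630 CPM.

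Of 32 other complement genes 25 were tested, and 1 passed (*Sez6l*), where 0.802% of all genes did. In this list 12 were positive and 13 negative, with a median log2 fold change of -0.0092. The unadjusted p was below 0.05 for 5 of the 25 (20%, beside 10.6% of all genes), 3 higher and 2 lower in KO. *Sez6l*, a neuronal membrane protein with CUB and sushi domains rather than a complement factor, was at 307.2, 292.6, 305.1, 309.6 and 281.1 CPM in KO mice 1 to 5 and at 257.5, 253.4, 282.2, 271.9 and 256.8 CPM in WT mice 1 to 5. It rose by a log2 fold change of 0.19 (SE 0.04, edgeR adjusted p = 0.0231), with KO mouse 5 just below WT mouse 3, and the adjusted p was 0.197 without surrogate variables. In 5 of 10 fits that left out a mouse it still passed, and it lost the call without KO mice 1, 3 or 4 or WT mice 4 or 5 (adjusted p from 0.0103 to 0.184 over the 10 fits). *C4b*, the component that C1q activation cleaves, was at 10.9 ± 2.24 CPM in KO and 9.20 ± 2.75 CPM in WT (SD, n = 5), with a log2 fold change of 0.024 (edgeR adjusted p = 0.9752). The fit without surrogate variables gave *C4b* 0.24 (edgeR adjusted p = 0.801). *C3*, the central component, did not pass the filter, with 46 counts over the KO and 36 over the WT libraries.

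Lists of microglial responses held 1 called gene, *Nfkbia*. Of 22 disease-associated genes 19 were tested, none passed in edgeR, and 2 (10.5%, beside 10.6% of all genes) had an unadjusted p below 0.05. These were *Igf1*, a growth factor, at 10.5 ± 1.37 CPM in KO and 13.2 ± 1.10 CPM in WT (SD, n = 5, log2 fold change -0.31, edgeR adjusted p = 0.222), and *Cd63*, a lysosomal tetraspanin, with a log2 fold change of -0.23 (edgeR adjusted p = 0.284). Of 14 cytokine and inflammasome genes 6 were tested, and *Nfkbia*, the inhibitor of NF-kappaB that many cell types express, passed, where 0.802% of all genes did. It was at 32.1, 28.8, 28.9, 33.7 and 24.1 CPM in KO mice 1 to 5 and at 24.4, 30.5, 20.8, 19.3 and 23.7 CPM in WT mice 1 to 5. *Nfkbia* rose by a log2 fold change of 0.47 (SE 0.07, edgeR adjusted p = 0.00275), though WT mouse 2 lay among the KO mice and KO mouse 5 among the WT mice, and the fit without surrogate variables gave 0.31 (edgeR adjusted p = 0.511). Its call held in 10 of 10 fits that left out a mouse, and was lost with 1 or 2 surrogate variables. The cytokines *Il1b* (28 counts over KO and 41 over WT libraries) and *Tnf* (1 and 6 counts) did not pass the filter.

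**Figure D4:**
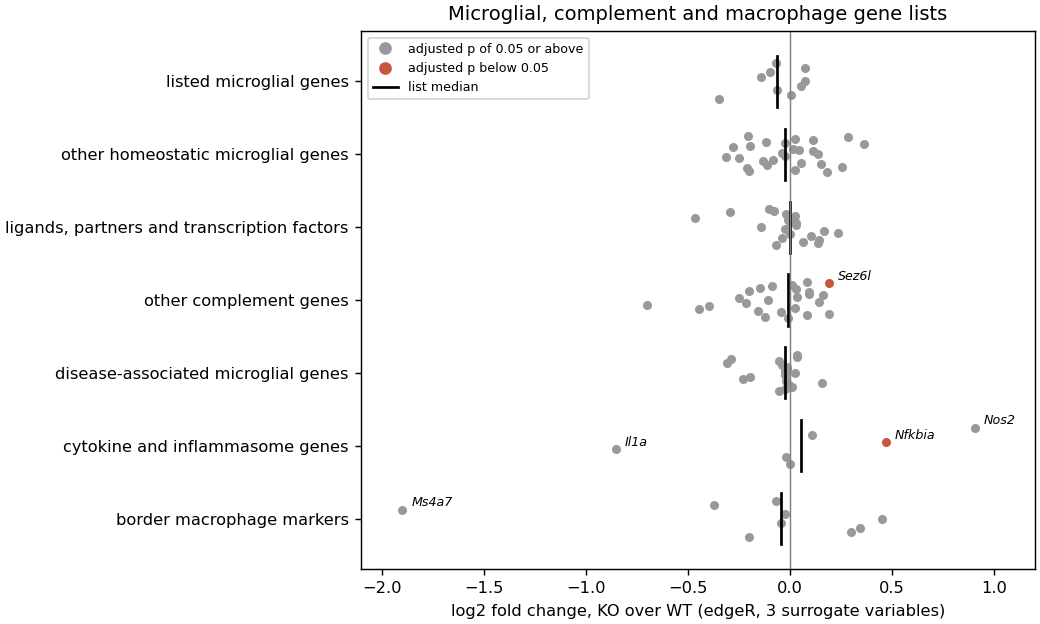
Fitted log2 fold change, KO over WT (x axis), of every tested gene in 7 lists of microglial, complement and macrophage genes (y axis), with the list median as a bar and genes with an adjusted p below 0.05 in red. The medians lie between -0.062 and 0.055, and *Sez6l* and *Nfkbia* are the red points.

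Markers of cells that share these genes were measured beside them, since border macrophages and monocytes also express *Aif1*, *Csf1r*, *C1qa* and *Cx3cr1*. The 9 border macrophage markers were all tested, with no call in edgeR. The unadjusted p was below 0.05 for 1 of the 9 (*Ms4a7*), where it was for 10.6% of all genes. These markers summed to 25.1 to 33.3 CPM in KO and 24.8 to 30.8 CPM in WT mice. None of 11 blood leukocyte markers passed the filter, their sum was 0.325 to 0.966 CPM in KO and 0.524 to 1.495 CPM in WT mice, and *Ms4a1* was at 0 counts in all 10 libraries. Lists for red cells, neurons, astrocytes, oligodendrocytes, endothelium and striatal neurons held no called gene in edgeR. In that order, 1 of 5, 3 of 8, 3 of 8, 0 of 8, 1 of 8 and 3 of 8 had an unadjusted p below 0.05, where 10.6% of all genes had. DESeq2, which called 1.58% of all genes, called the neuronal gene *Rbfox3* in these lists. The summed red cell level was 31.7 to 143.1 CPM in KO and 27.7 to 59.3 CPM in WT mice, and striatal markers summed to 328 to 489.6 CPM in KO and 298 to 590.0 CPM in WT mice. The part of these other cells in the values of the members was not tested. The fitted log2 fold changes of the microglial genes without the library labelled KO mouse 3, without KO mouse 5 or without WT mouse 2 moved by at most 0.03, 0.05 and 0.07 on the log2 scale, with 0 of 9 called each time.

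The genes whose deviations from their genotype means went most closely with those of the 9 members over the 10 mice, out of 13205 compared, were *Pfn1* (r = 0.97), *Baiap3* (0.96), *Cmtm7* (0.95), *Carmil3* (0.94), *Reln* (0.94), *Fstl5* (0.93), *Pear1* (0.93), *Atg4a* (0.93), *Prpf40b* (0.92) and *Leng8* (0.92). None of these 10 was on a marker list. With so many genes and 10 points that share library and depth, such values describe these libraries. Among the other homeostatic microglial genes 19 of 26 had a positive r with a median of 0.33. Of the border macrophage markers 5 of 5 were positive with a median of 0.52. Over all compared genes 49.3% were positive, with a median of -0.0092. Lists of other cells had medians near the microglial one, at 0.36 for red cells (5 of 5 positive), 0.35 for striatal neurons (6 of 8), 0.34 for endothelium (7 of 8), 0.32 for astrocytes (6 of 8) and 0.30 for oligodendrocytes (8 of 8), while neuronal markers had -0.089 (4 of 8).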

How the data were processed

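The authors aligned reads of polyA-selected, stranded libraries from whole PFC to mm10 with STAR 2.7.1a, kept uniquely mapped reads, and ran HTSeq 0.9.1 (intersection-strict) over the exons of protein-coding Gencode M21 genes. The deposited table holds raw counts per gene, and 22000 genes were in the table used here. Counts of 10 libraries (5 KO, 5 WT, from the titles) were tested with edgeR 4.0.16 (R 4.3.3) after filterByExpr and TMM scaling, in a quasi-likelihood fit of genotype and 3 surrogate variables (sva 3.50.0), with Benjamini-Hochberg adjustment over 14344 genes and a threshold of 0.05. The study's own model was linear, so limma 3.58.1 on log2(CPM + 1) was an alternative, as were DESeq2 1.42.0, other covariates, filters and scalings, and leaving out each mouse. CPM are TMM-scaled, standard errors come from the F statistic, and intervals cover 95%. Exact permutation tests and correlations used log2(CPM + 1) with Python 3.11.15 and scipy 1.17.1, the latter with 100000 resamples where not exact. A level of 3 counts is 0.0580 to 0.0996 CPM, a limit for counting error alone because no molecular identifiers were used. The least different pair of libraries within a group had a chi-square of 5.67 per degree of freedom, so none was counted as a duplicate. The titles number separate mice, and nothing else about litter or batch was given. The fitting script was tested on simulated data. The members and lists were chosen with earlier results of these data known. Named genes were all members, *Zbtb16*, called list genes or else the 2 of smallest p in each list, set partner genes, and the 10 genes most like the members. Some genes of the lists are not reported here.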

Additional observations from a re-analysis of the deposited data

Results flagged for a closer look

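In 2 of 18 groups of 5 mice, 1 mouse lay beyond the Dixon limit for 5 values, where chance gives about 1 in 20. *Csf1r* in WT mouse 2 was at 76.0 CPM, with the nearest WT mouse at 90.5 and the highest at 94.9 CPM. *P2ry12* in KO mouse 5 was at 44.6 CPM, with the nearest KO mouse at 34.1 and the lowest at 31.4 CPM.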

How the results depend on the processing

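No alternative called a microglial gene, and the 9 genes gave 189 alternative values of which 177 kept their direction and side of the threshold and 12 changed sign. The direction of *C1qa* was not set: -0.0071 without surrogate variables, -0.0092 with RIN as covariate, -0.0095 with the replicate number as a block, -0.15 in mice with RIN below 9.5 (a subset chosen after seeing the data) and -0.018 to 0.072 when a mouse was left out. *C1qb* was 0.033 and *Cx3cr1* 0.0058 in mice with RIN of 9.5 or above, where the median of the 9 was 0.033, and *P2ry12* was 0.16 with RIN below 9.5. Over all genes 115 calls became 30 without surrogate variables, 35 with 1, 57 with 2, 38 with RIN, 24 with the replicate block, 227 in DESeq2, 1 and 0 in the high and low RIN mice (fewer samples and no surrogate variables, both changed at once), and 39 (without WT mouse 3) to 249 (without KO mouse 2) when a mouse was left out, with KO mice 1 and 3 and WT mice 4 and 5 also moving it by over 1.5 times. The 2 list genes called became 1 with 2 surrogate variables, 0 without them, with 1, with RIN, with the replicate block and in either RIN subset, 3 in DESeq2 (*Rbfox3* added), and 1 to 7 when a mouse was left out (7 without KO mouse 2, 4 without KO mouse 5 or WT mouse 1, 5 without WT mouse 5, 1 without KO mice 1, 3 or 4 or WT mouse 4). Genes without overlap, 227 with all mice, numbered 315 to 475 when a mouse was left out. Of the members 0 to 1 then had no overlap (*Csf1r* without WT mouse 4) and 0 to 1 an exact p below 0.05 (0 without KO mice 2, 3 or 5), and 0 to 1 of the 36 pairs passed (*Aif1* with *P2ry12*, r = 0.91, without KO mouse 5). The titles do not say whether the replicate numbers pair the mice. Deviations of same-numbered mice correlated at 0.17, -0.0018, 0.12, -0.11 and 0.10. Of the 10 mice, 4 went best with their own number. KO mouse 1 and WT mouse 1 went best with each other, but so did KO mouse 3 with WT mouse 4 and KO mouse 4 with WT mouse 2. The block stands for a shared number, and a litter or batch behind it was not tested. The other causes were not tested. Depth limits the genes that did not pass the filter. *Aif1* had 78 to 220 counts, and its spread between mice (19.8% in WT, 16.8% in KO) was above the 8.74% that counting gives.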

Other observations

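In the lists of other cells, genes of small p that did not pass were these, each with its edgeR log2 fold change, KO over WT. Among neuronal markers *Rbfox3*, the NeuN gene, had 370.2 ± 20.97 CPM in KO and 347.1 ± 20.7 CPM in WT (SD, n = 5; 0.15, edgeR adjusted p = 0.0724), and *Map2* had 0.07 (adjusted p = 0.387). The astrocyte glutamate transporter *Slc1a3* had 0.14 (adjusted p = 0.207) and the enzyme *Aldoc* -0.11 (adjusted p = 0.285). The myelin gene *Mag* had -0.11 (adjusted p = 0.55). The endothelial receptors *Flt1* and *Tek* had -0.18 (adjusted p = 0.262) and -0.17 (adjusted p = 0.548). The striatal gene *Tac1* had 0.35 (adjusted p = 0.112).

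Of the macrophage, cytokine, complement and red cell lists, the macrophage gene *Ms4a7* had 0.160 ± 0.138 CPM in KO and 0.427 ± 0.217 CPM in WT (SD, n = 5), a log2 fold change of -1.90 (edgeR adjusted p = 0.357). It was at 0 in KO mouse 1 and at 0.0295 CPM in KO mouse 4, both below the level of 3 counts. Without surrogate variables its log2 fold change was -1.38. *Lyve1*, a hyaluronan receptor, had 0.45 (edgeR adjusted p = 0.683). The inducible nitric oxide synthase gene *Nos2* had 0.91 (adjusted p = 0.545) and *Csmd3*, a CUB and sushi domain gene, -0.20 (adjusted p = 0.241). The haemoglobin genes *Hbb-bs* and *Hba-a1* had -0.32 (adjusted p = 0.458) and -0.22 (adjusted p = 0.686) with surrogate variables, and 0.23 and 0.31 without.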
